A study of Homo sapiens with 7 samples.

Results

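H3K4me3 was examined at the start sites of 9 genes that mark epithelial or mesenchymal identity, in HCT116, a cell line from a human colon cancer, with both KDM5A alleles knocked out. The epithelial genes were CDH1, EPCAM, KRT8, KRT18 and KRT19, and the mesenchymal genes were VIM, ZEB1, TWIST1 and SNAI2. Regions of the deposited table were taken when they overlapped 3 kb either side of a stated hg19 start site (given to the nearest kb), and 11 of 30840 regions did so, 6 at epithelial and 5 at mesenchymal genes. No gene was without a region. CDH1, EPCAM, KRT18, KRT19, VIM, ZEB1 and TWIST1 had 1 region each, and KRT8 and SNAI2 had 2. The region with more reads is called the main region of its gene, and each of the 9 main regions covered the stated start site.

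The knockout cells were transfected with a mutant KDM5A, with wild-type KDM5A or with an empty vector and fixed 24 h later, so that all groups lacked the cell's own KDM5A. Each transfection gave 1 H3K4me3 library, with 9906508 reads for mutant KDM5A, 10852411 for wild-type KDM5A and 10713021 for the empty vector. There was no replicate, so no difference below has a p-value, and every interval is a 95% interval that covers counting error only. Which residues the mutant changes, and what share of cells took up a plasmid, the labels do not say. No value was corrected for background or for gene copy number, as the input and IgG libraries were not used here.

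H3K4me3, the trimethylation of lysine 4 on histone H3, marks the promoters of active genes and also many CpG-rich promoters that are poised, and KDM5A is a demethylase that removes it. Epithelial cells are held together by E-cadherin, the product of CDH1, and carry the adhesion molecule EPCAM and keratin filaments, while mesenchymal cells build filaments of vimentin, the product of VIM. In the epithelial-mesenchymal transition, the repressors ZEB1 and SNAI2 and the bHLH factor TWIST1 lower CDH1 transcription. These factors bind E-boxes, DNA sites of the form CANNTG, and ZEB1 and SNAI2 prefer CAGGTG or its complement CACCTG. The mark at a promoter is not a measure of RNA.

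RefSeq promoter sequences (GRCh38.p14) matched 3 of the 9 genes by symbol, KRT8, VIM and ZEB1. The 250 bases before the VIM start and before the most upstream of 7 listed ZEB1 starts are shown because they are the DNA next to a main marker and a main repressor of the transition, with capitals for CAGGTG or CACCTG and for the GC box (GGGCGG or CCGCCC).
VIM, chr10:17227991-17228240, plus strand: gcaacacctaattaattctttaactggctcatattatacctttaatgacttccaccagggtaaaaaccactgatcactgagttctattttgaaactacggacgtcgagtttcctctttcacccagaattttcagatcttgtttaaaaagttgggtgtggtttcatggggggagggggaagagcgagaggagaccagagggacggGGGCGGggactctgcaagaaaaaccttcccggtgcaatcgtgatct
ZEB1, chr10:31318167-31318416, plus strand: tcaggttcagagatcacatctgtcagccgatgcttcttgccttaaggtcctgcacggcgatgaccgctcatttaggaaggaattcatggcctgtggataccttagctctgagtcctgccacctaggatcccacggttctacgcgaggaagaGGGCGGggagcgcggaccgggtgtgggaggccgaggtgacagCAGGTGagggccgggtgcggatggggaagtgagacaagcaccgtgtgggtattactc
The VIM stretch held 1 GC box and 0 matches to CANNTG, with 46% G or C and 8 CpG. The ZEB1 stretch held 1 GC box and 2 matches to CANNTG, 1 of them CAGGTG, with 59.2% G or C and 15 CpG. Both strands were searched, and CAGGTG is itself a CANNTG, so these counts overlap. Of the 35116 RefSeq promoter windows of 250 bases, 17.5% held CAGGTG or CACCTG, 61.8% held CANNTG and 42.6% held a GC box, and the median window had 58% G or C and 11 CpG. Among the ZEB1 starts, which span 3243 bp, another one, 799 bp beyond the first, had both CACCTG and CAGGTG in its window. Of all windows, 2.53% had 2 or more such matches, a share per window and not per gene with 7 starts. The windows of the remaining ZEB1 starts held neither CAGGTG nor CACCTG. The KRT8 entry is a start 22.4 kb from the KRT18 gene, whereas the start sites used here lie 45 kb apart, so it was not taken for the DNA of the KRT8 region. These matches describe the letters only, and they are on another build than the regions.

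The epithelial start sites carried strong H3K4me3 in all libraries. At CDH1 (chr16:68770598-68773019) the region had 42.7 RPM with mutant KDM5A and 45.6 RPM with wild-type KDM5A, against 53.1 RPM with the empty vector, where RPM is reads scaled to a library total of 1000000. EPCAM (chr2:47595740-47598185) had 45.1 RPM with mutant and 45.8 RPM with wild-type KDM5A, against 51.7 RPM with the empty vector. In both genes the empty vector library was the highest and the KDM5A libraries lay close together. Both regions began within 402 bp below the stated start and ran about 2 kb beyond it, 2019 bp for CDH1 and 2185 bp for EPCAM.

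Keratins 8 and 18 pair to form the filaments of simple epithelia, and keratin 19 is a further simple epithelial keratin. The KRT8 main region (chr12:53296276-53299346) had 55.2 RPM with mutant KDM5A and 65.3 RPM with wild-type KDM5A, against 68.8 RPM with the empty vector. KRT18 (chr12:53338980-53345978) had 69.1 RPM with mutant and 78.9 RPM with wild-type KDM5A, against 85.0 RPM with the empty vector. KRT19 (chr17:39680676-39687206) had 60.2 RPM with mutant and 66.3 RPM with wild-type KDM5A, against 71.7 RPM with the empty vector. At all 3 keratin genes the mutant library was the lowest and the empty vector library the highest, with wild-type KDM5A between them. The KRT18 and KRT19 regions were broad, 6999 and 6531 bp, wider than 99.7% and 99.6% of all regions. In GRCh38.p14 the annotated KRT8 gene overlaps KRT18, so the mark at the KRT18 start cannot be told apart from that of a long KRT8 transcript.

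The mesenchymal start sites were marked as well. At VIM (chr10:17270020-17273246) the region had 28.97 RPM with mutant KDM5A and 29.1 RPM with wild-type KDM5A, against 36.7 RPM with the empty vector. ZEB1 (chr10:31606754-31610809) had 54.4 RPM with mutant and 55.0 RPM with wild-type KDM5A, against 64.8 RPM with the empty vector. TWIST1 (chr7:19155310-19157490) had 18.5 RPM with mutant and 18.4 RPM with wild-type KDM5A, against 23.1 RPM with the empty vector. In these 3 genes the KDM5A libraries were nearly level with each other and below the empty vector library. SNAI2 (chr8:49832404-49834972) differed in its order, with 14.03 RPM for mutant and 16.2 RPM for wild-type KDM5A, against 16.6 RPM for the empty vector, so that wild-type KDM5A lay near the empty vector. VIM and ZEB1 have antisense genes beside them in RefSeq, VIM-AS1 and ZEB1-AS1, and the mark does not separate the directions.

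**Figure D1:**
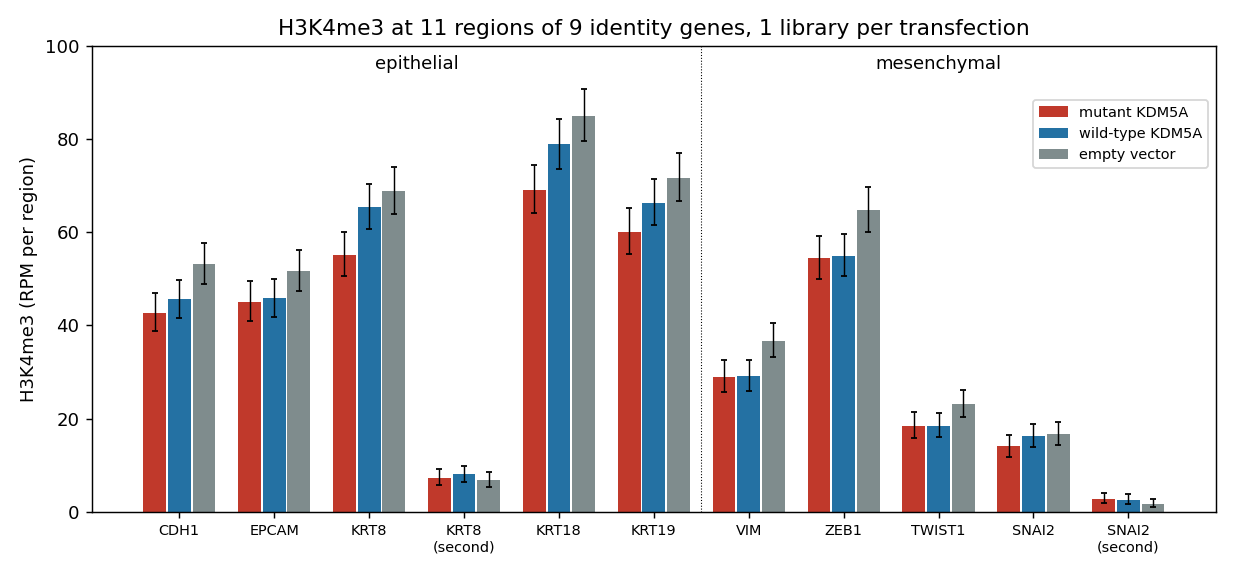
H3K4me3 in RPM per region (vertical axis) at the 11 regions, with mutant KDM5A in red, wild-type KDM5A in blue and the empty vector in grey; bars are single libraries and error bars are exact Poisson 95% intervals. The empty vector bar is the highest at all 9 main regions, from 16.6 RPM at SNAI2 to 85.0 RPM at KRT18, and not at the second regions of KRT8 and SNAI2.

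The second regions were weak and had another order. The second KRT8 region (chr12:53300114-53302757), 767 bp beyond the main one, had 7.27 RPM with mutant and 8.02 RPM with wild-type KDM5A, against 6.81 RPM with the empty vector. The second SNAI2 region (chr8:49835837-49836455), 864 bp beyond its main region, had 2.73 RPM with mutant KDM5A (27 reads) and 2.58 RPM with wild-type KDM5A (28 reads), against 1.68 RPM with the empty vector (18 reads). In both, the KDM5A libraries were above the empty vector library, and every ratio to it had an interval that includes 1.

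Per length, the genes fell into levels that were alike in the 3 libraries. With the empty vector the main regions of KRT8, CDH1 and EPCAM had 22.4, 21.9 and 21.1 RPM per kb, ZEB1 had 15.97, and SNAI2 had the lowest, 6.47, where the median of all regions, averaged over the libraries, was 4.13. Between them lay KRT18 with 12.1, VIM with 11.4, KRT19 with 10.98 and TWIST1 with 10.6 RPM per kb. Neighbours in this order had overlapping Poisson intervals among KRT8, CDH1 and EPCAM, and again among KRT18, VIM, KRT19 and TWIST1. The steps from EPCAM to ZEB1 (19.4 to 23.0 against 14.8 to 17.2), from ZEB1 to KRT18 and from TWIST1 to SNAI2 (9.33 to 12.02 against 5.55 to 7.49) were wider than the intervals. With mutant KDM5A the order began EPCAM, KRT8, CDH1 (18.4, 17.98 and 17.6 RPM per kb) and with wild-type KDM5A KRT8, CDH1, EPCAM (21.3, 18.8 and 18.7), again with overlapping intervals between neighbours, and in both ZEB1 came next and SNAI2 last. ZEB1, a repressor of epithelial genes, thus carried more mark per kb than KRT18 and KRT19 in all 3 libraries, 13.4 against 9.88 and 9.21 with the mutant. This order comes from dividing by width, 4056 bp for ZEB1 against 6999 and 6531 bp. In RPM per region ZEB1 was below both in all 3 libraries, 64.8 against 85.0 and 71.7 with the empty vector. By mean RPM, the main regions stood above 62.3% of all regions at the least (SNAI2) and above 96.7% at the most (KRT18).

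The first comparison asks how the mark at these genes stood with mutant KDM5A relative to the empty vector. All 9 main regions were lower with the mutant, by the scaling to library totals, with ratios from 0.790 at VIM to 0.873 at EPCAM, and both second regions were higher. Over all regions 70.5% were lower, and among those of 20 RPM or more in the mean of the libraries 98% were, so the direction is the one that nearly all strong regions had. The interval lay below 1 at 8 main regions, SNAI2 being the exception with 0.844 (0.672 to 1.06). SNAI2 had the fewest reads of the main regions, 139 with the mutant and 178 with the empty vector. Its ratio was below that of EPCAM, 0.873 (0.769 to 0.990), whose interval lay below 1. The share of all regions with an interval below 1 was not computed, so this count has no background to be set against. CDH1 had a ratio of 0.804 (0.707 to 0.913), KRT8 of 0.803 (0.717 to 0.898) and VIM of 0.790 (0.676 to 0.922). On the log2 scale with 0.7 RPM added to each value, 0 of the 11 regions passed 1.5-fold in either direction, where 14.8% of all regions did and 0.478% of those of 20 RPM or more. The median log2 ratio of the 11 regions was −0.25, against −0.18 over all regions and −0.24 over the regions of 20 RPM or more. The intervals are not adjusted for the 33 that were computed.

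The second comparison asks the same of wild-type KDM5A. Again all 9 main regions were lower than with the empty vector by the scaling to library totals, and both second regions were higher, while 66.7% of all regions and 91.4% of those of 20 RPM or more were lower. The interval lay below 1 at 4 main regions, CDH1 with 0.859 (0.760 to 0.970), VIM with 0.794 (0.682 to 0.923), ZEB1 with 0.849 (0.760 to 0.949) and TWIST1 with 0.796 (0.657 to 0.963). For this count, too, the share of all regions was not computed. At the keratins and at SNAI2 the ratios were nearer to 1, 0.9497 (0.855 to 1.05) for KRT8, 0.928 (0.844 to 1.02) for KRT18, 0.925 (0.835 to 1.03) for KRT19 and 0.976 (0.788 to 1.21) for SNAI2. EPCAM had 0.886 (0.783 to 1.001). Of the 11 regions, 0 passed 1.5-fold, where 12.8% of all regions did and 0.0919% of those of 20 RPM or more. The median log2 ratio of the 11 regions was −0.11, against −0.11 over all regions and −0.15 over those of 20 RPM or more. Of the ratios of the latter, 4.92% were below that of VIM, 5.75% below that of TWIST1 and 76.3% below that of KRT8. Both comparisons use the same empty vector library, so their values are not independent.

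The third comparison sets mutant against wild-type KDM5A, and the series title concerns methylation of KDM5A by SMYD2 and the activity of the demethylase. The keratins were lower with the mutant by the scaling to library totals, with a ratio of 0.845 (0.755 to 0.946) for KRT8, 0.877 (0.792 to 0.970) for KRT18 and 0.907 (0.812 to 1.01) for KRT19. At VIM, ZEB1 and TWIST1 the ratios were close to 1, 0.995 (0.845 to 1.17), 0.989 (0.879 to 1.11) and 1.002 (0.816 to 1.23), and these intervals overlap those of the keratins. CDH1 had 0.936 (0.820 to 1.07), EPCAM 0.985 (0.865 to 1.12) and SNAI2 0.865 (0.688 to 1.09). The interval lay below 1 at 2 of the 9 main regions, KRT8 and KRT18, and the share of all regions with such an interval was not computed. Over all regions 63.7% were lower with the mutant. Among those of 20 RPM or more, where 79.6% were, 10.7% of the ratios were below that of KRT8 and 20.3% below that of KRT18. Of the 11 regions, 0 passed 1.5-fold, where 10.6% of all regions did and 0% of those of 20 RPM or more. The median log2 ratio of the 11 regions was −0.094, against −0.077 over all regions and −0.093 over those of 20 RPM or more.

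**Figure D2:**
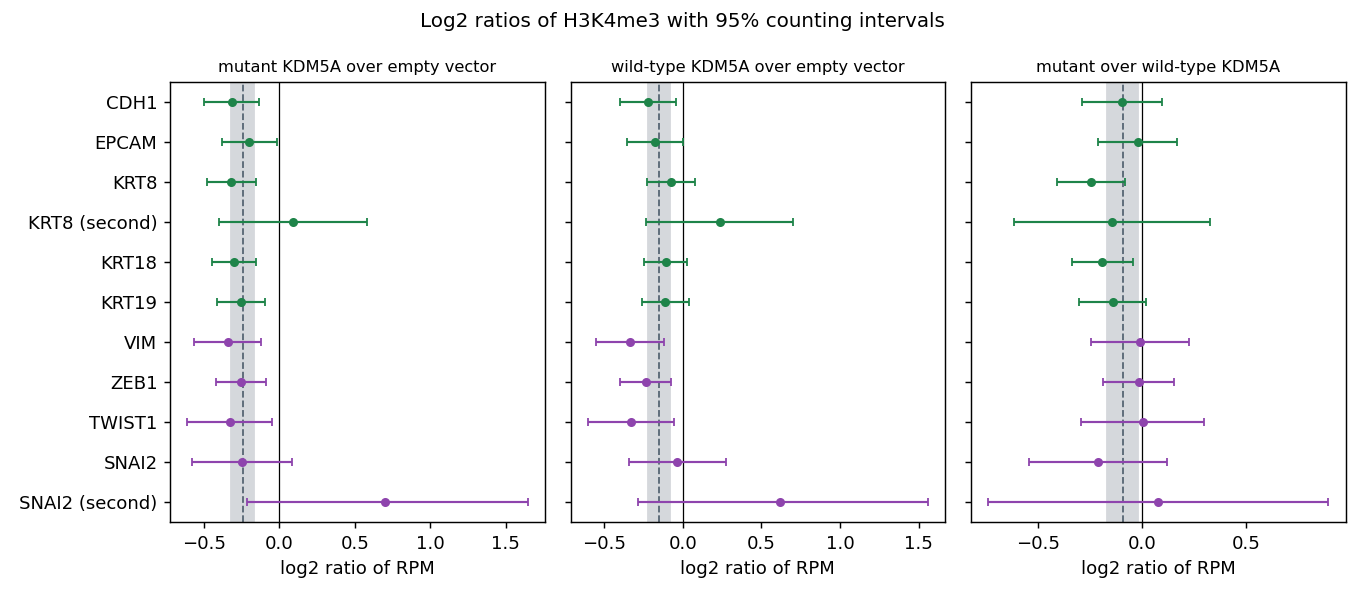
Log2 ratio of RPM (horizontal axes) for each of the 11 regions in the 3 comparisons, epithelial genes in green and mesenchymal genes in purple; bars are exact conditional 95% counting intervals. The dashed line and grey band are the median and quartiles of the 10887 regions of 20 RPM or more, and the band overlaps the interval of each main region in each panel.

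These directions rest on the scaling. Scaling the libraries to a median ratio of 1 over the regions at or above the median level raised the ratios to the empty vector by 0.24 on the log2 scale for mutant and by 0.14 for wild-type KDM5A, and those of mutant to wild-type KDM5A by 0.095. After it, no main region had an interval that excludes 1 in any of the 3 comparisons. The share of all regions with such an interval after this scaling was not computed. With the mutant 8 main regions were then below the empty vector and EPCAM was above it, with 1.03 (0.907 to 1.17). With wild-type KDM5A 5 were below and 4 above, CDH1, EPCAM, VIM, ZEB1 and TWIST1 being below and KRT8, KRT18, KRT19 and SNAI2 above. Against wild-type KDM5A, KRT8 with the mutant had 0.903 (0.806 to 1.01) and KRT18 had 0.936 (0.845 to 1.04). The share of reads in regions was 56.9% with mutant and 60.7% with wild-type KDM5A, against 67.0% with the empty vector. A loss of mark at all promoters and a technical difference between the single libraries in that share cannot be told apart here. Of the 11 regions only the second SNAI2 region then had an interval that excludes 1, with 1.91 (1.02 to 3.69) for the mutant over the empty vector.

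Summed over the gene sets, the epithelial regions held 279.6 RPM (2770 reads) with mutant KDM5A and 310 RPM (3364 reads) with wild-type KDM5A, against 337 RPM (3612 reads) with the empty vector. The mesenchymal regions held 119 RPM (1175 reads) with mutant and 121 RPM (1317 reads) with wild-type KDM5A, against 143 RPM (1531 reads) with the empty vector. Relative to the empty vector the mutant had 0.829 of the signal at epithelial regions (0.789 to 0.872) and 0.830 at mesenchymal regions (0.769 to 0.896). Wild-type KDM5A had 0.919 (0.877 to 0.964) and 0.849 (0.788 to 0.915) of it, and mutant over wild-type KDM5A was 0.902 (0.857 to 0.949) and 0.977 (0.903 to 1.06), epithelial regions first in each case. In all 3 comparisons the intervals of the 2 sets overlap.

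Ratios within a library do not depend on how that library was scaled. The epithelial regions span 24113 bp and the mesenchymal regions 12652 bp, so the read ratios of the sets also reflect width. The reads of the epithelial regions were 2.36 times those of the mesenchymal regions with mutant KDM5A (2.201 to 2.53) and 2.55 times with wild-type KDM5A (2.396 to 2.72), against 2.36 times with the empty vector (2.22 to 2.51). The balance with the mutant was thus 0.999 of that with the empty vector (0.912 to 1.095), and with wild-type KDM5A it was 1.08 times that with the empty vector (0.991 to 1.18). Mutant over wild-type KDM5A was 0.923 (0.840 to 1.01). For the pair most used to describe the transition, CDH1 to VIM, the ratio was 1.47 with mutant and 1.57 with wild-type KDM5A, against 1.45 with the empty vector. The mutant over the empty vector gave 1.02 (0.832 to 1.25) and wild-type KDM5A over the empty vector 1.08 (0.890 to 1.32). Mutant over wild-type KDM5A gave 0.941 (0.762 to 1.16). A difference in the epithelial to mesenchymal balance was therefore not detectable at this depth in any of the 3 comparisons, and the CDH1 to VIM intervals allow ratios from 0.762 to 1.32.

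**Figure D3:**
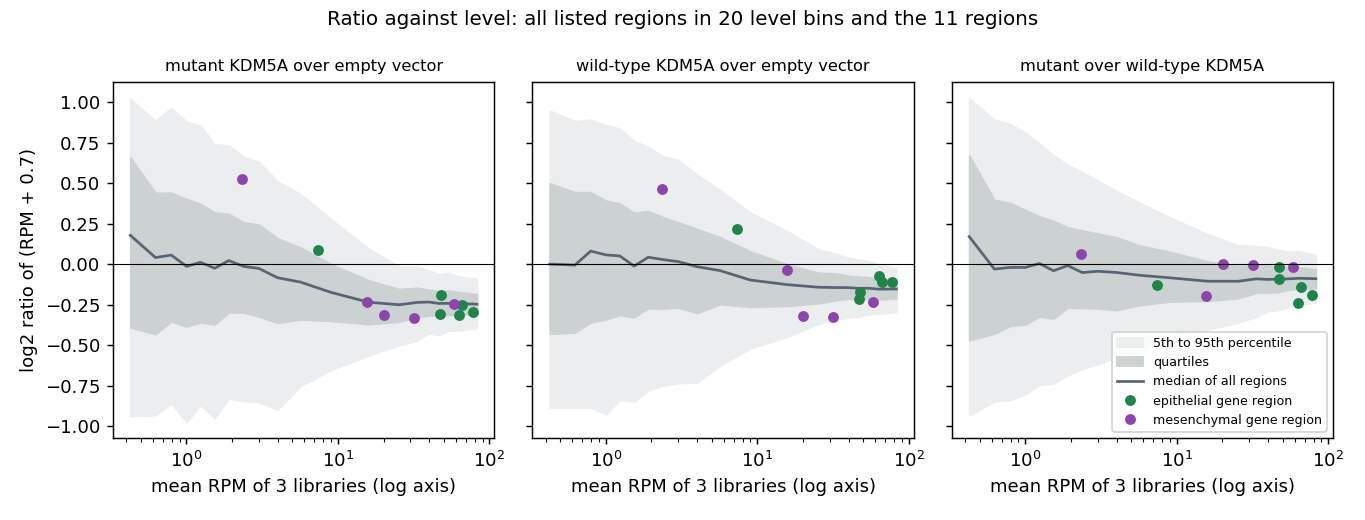
Log2 ratio of RPM plus 0.7 (vertical axis) against mean RPM (log axis) for the 3 comparisons; the grey line and bands are the median, quartiles and the 5th to 95th percentiles of all 30840 regions in 20 level bins, and points are the 11 regions. All main regions lie within the 5th to 95th percentiles of regions of like level. For the mutant over the empty vector, KRT8 and VIM lie at the lower edge of the quartile band. For the wild type over the empty vector, VIM and TWIST1 lie farthest under this band, ZEB1 and CDH1 lie slightly under it and KRT8 lies above it. For the mutant over the wild type, KRT8 and KRT18 lie under the band, and VIM, ZEB1, TWIST1 and EPCAM lie at its upper edge. The weak second regions of SNAI2 and KRT8 have a mean of 2.33 and 7.37 RPM. They lie above 0 in the panels of the mutant and of the wild type over the empty vector.

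Around the start sites, 16 further regions lay within 25 kb and outside the windows, 15 of them at epithelial genes and 1 at a mesenchymal gene (TWIST1). VIM, ZEB1 and SNAI2 had 0, CDH1 had 5, EPCAM, KRT18 and KRT19 had 3 each, and KRT8 had 2, of which 1 is shared with KRT18. These regions were weak, from 0.514 to 12.2 RPM in the mean of the libraries. Their sum was 76.3 RPM with mutant and 75.5 RPM with wild-type KDM5A, against 73.8 RPM with the empty vector, a ratio to the empty vector of 1.03 for the mutant (0.934 to 1.14) and 1.02 for the wild type (0.926 to 1.13). By this scaling 11 of the 16 were higher and 5 lower with the mutant, with 3 intervals above and 2 below 1, and 9 were higher and 7 lower with wild-type KDM5A, with 0 intervals that exclude 1. Of all regions under 5 RPM, 50.03% were higher than with the empty vector for mutant and 49.99% for wild-type KDM5A. Over all regions 70.5% and 66.7% were lower. The share of all regions with an interval that excludes 1 was not computed. After scaling to a median ratio of 1 the sum was 1.22 times that of the empty vector for the mutant (1.103 to 1.35) and 1.13 times for the wild type (1.02 to 1.25), so whether it was level or higher depends on the scaling. Over the whole table, by RPM, regions under 5 RPM had median log2 ratios to the empty vector of 0.00037 for mutant and 0 for wild-type KDM5A, while those of 20 RPM or more had −0.24 and −0.15.

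The reads of the 9 main regions were 5.09 times those of the 16 surrounding regions with mutant KDM5A and 5.58 times with wild-type KDM5A, against 6.39 times with the empty vector. This within-library contrast was 0.797 of that with the empty vector for the mutant (0.714 to 0.889) and 0.873 for wild-type KDM5A (0.784 to 0.972). Over the whole table the contrast was lower too. The ratio of reads in regions of 20 RPM or more to reads in regions under 5 RPM was 18.6 with mutant and 19.4 with wild-type KDM5A, against 21.2 with the empty vector, which is 0.877 and 0.914 of the empty vector value, each inside the interval of the same comparison above. Set against all regions under 20 RPM, which include those of 5 to 20 RPM, it was 0.937 and 0.9505 of that value. Of these, the mutant value lies above the interval at the identity genes and the wild-type value inside it. The surrounding regions reached 12.2 RPM, so neither group of weak regions matches them in level. Whether the contrast at the identity genes differs from that of other genes was not tested.

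Of the 16 surrounding regions, 3 passed 1.5-fold between mutant KDM5A and the empty vector, 0 between wild-type KDM5A and the empty vector and 2 between mutant and wild-type KDM5A. Among all regions under 5 RPM, which 10 of the 16 were, 26.6%, 23.8% and 20.3% passed in these comparisons. Over all regions the shares were 14.8%, 12.8% and 10.6%. The 3 regions that passed between mutant KDM5A and the empty vector are given here because they passed. Above the CDH1 start, the region at chr16:68775069-68776892 had 4.85 RPM with mutant and 2.86 RPM with wild-type KDM5A, against 2.99 RPM with the empty vector, or 48, 31 and 32 reads. Below EPCAM the region at chr2:47584307-47584926 had 1.82 RPM with mutant and 0.645 RPM with wild-type KDM5A, against 0.560 RPM with the empty vector, from 18, 7 and 6 reads. Below KRT8 the region at chr12:53273452-53274263 had 3.03 RPM with mutant and 4.88 RPM with wild-type KDM5A, against 5.51 RPM with the empty vector. The first and second of these were highest with the mutant, and the third was lowest with it.

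Between the KRT8 and KRT18 main regions, the region at chr12:53317945-53321900 had the opposite order of libraries to both main regions. It had 12.6 RPM with mutant and 10.8 RPM with wild-type KDM5A, against 9.33 RPM with the empty vector. The mutant was 1.35 times the empty vector (1.03 to 1.78) and the wild type 1.15 times (0.877 to 1.52). The mutant was 1.17 times the wild type (0.902 to 1.52), so the place of the wild type in this order was within counting error. These intervals were not adjusted for the 16 surrounding regions, some others of which, near EPCAM, KRT18 and TWIST1, had the same order of libraries. The region was 3956 bp wide, with its nearer edge 21.1 kb below the stated KRT18 start. The RefSeq KRT8 start lies 22.4 kb from the KRT18 gene on another build, so this region may itself hold an annotated KRT8 start. The KRT8 and KRT18 main regions kept their proportion to each other, with KRT8 at 0.799 of the reads of KRT18 with mutant and 0.828 with wild-type KDM5A, against 0.809 with the empty vector. The difference of this proportion between mutant and empty vector was within counting error, with a ratio of 0.987 (0.848 to 1.15).

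**Figure D4:**
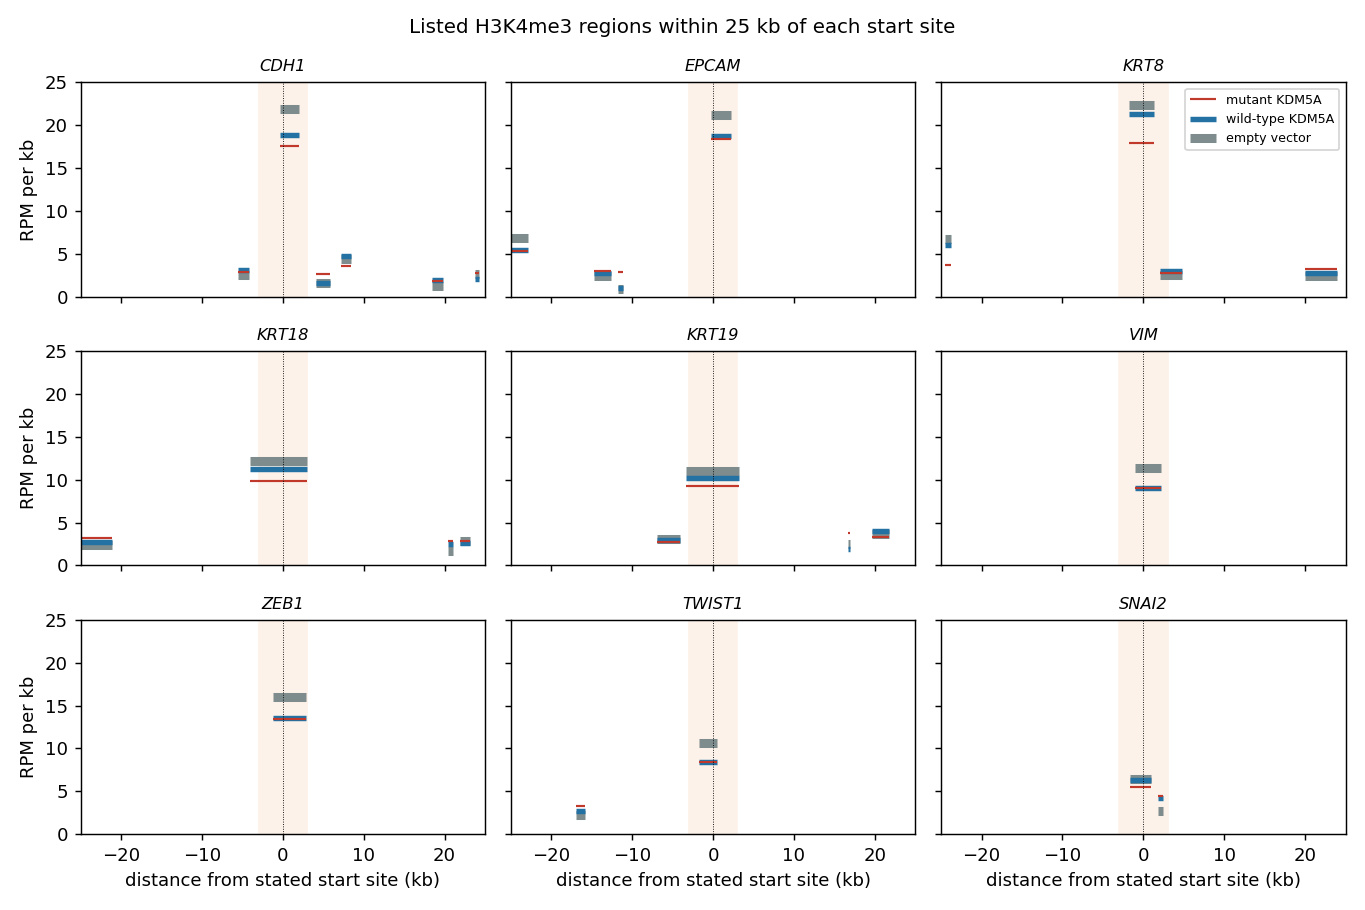
RPM per kb (vertical axis) of each listed region within 25 kb of the 9 stated start sites, drawn from its start to its end as distance from that site in kb; red is mutant KDM5A, blue wild-type KDM5A and grey the empty vector, with line widths that differ only so that overlaid lines can be seen, and the shaded strip is the window of 3 kb either side. The main regions stand above their surroundings, from 6.47 RPM per kb at SNAI2 to 22.4 at KRT8 with the empty vector, and VIM, ZEB1 and SNAI2 have no region outside the window.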

How the data were processed

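The deposited table gives RPM per region, reads scaled by the authors to 1000000 per library, for 3 of the 7 libraries of the series. Per the submitters' processing notes MACS, MACS2, HOMER, deepTools 3.5.6 and Bowtie2 2.5.4 were used, on hg19; region calling and read counting are not described in the sources used here. Chromatin was sheared to about 250 to 750 bp, per the labels' protocols. The empty vector column is headed H3K4me4, read as a slip for H3K4me3. Each library's deposited RPM values were whole multiples of a smallest step (100% within 0.02 reads), from which reads and totals were taken. PCR copies are not independent molecules. A value of 0 allows up to 3 reads, which is 0.303 RPM for mutant and 0.276 RPM for wild-type KDM5A, against 0.280 RPM for the empty vector; no described region was at 0.

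Starts are given 1-based. Ratios are plain RPM ratios with exact conditional (Clopper-Pearson) intervals, levels have exact Poisson intervals, and ratios of ratios have exact conditional odds ratio intervals. Counts past 1.5-fold and medians use log2 of RPM plus 0.7, which understates changes of weak regions. All 9 genes of the rule and all their regions are named. The genes, lists, pseudocount and thresholds were chosen with earlier results of these data known. Other epithelial and mesenchymal genes were not analysed here, since no hg19 annotation was used. The ratio and interval steps were tested on simulated data. Scripts ran under Python 3.11.15 with scipy 1.17.1, pandas 2.3.3, matplotlib 3.10.9 and numpy 2.4.6.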

Additional observations from a re-analysis of the deposited data

How the results depend on the processing

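The summed log2 ratios depended on scaling and not on the window or the level filter. Windows of 1 kb and 10 kb and the regions of 5 RPM or more left all 6 sums inside their counting intervals. Scaling to a median ratio of 1, and to equal sums over all regions, gave for the mutant over the empty vector −0.031 and −0.035 at epithelial and −0.030 and −0.034 at mesenchymal regions (as deposited −0.27 for both sets), and for mutant over wild-type KDM5A −0.054 and −0.057 at epithelial regions (−0.15). For wild-type KDM5A over the empty vector they gave 0.023 and 0.022 at epithelial regions, where the sign turned from −0.12, and −0.091 and −0.092 at mesenchymal regions (−0.24). For mutant over wild-type KDM5A at mesenchymal regions the sign also turned, from −0.033 to 0.062 and 0.059, inside the counting interval. The regions past 1.5-fold, 0 as reported, became 1 for the mutant over the empty vector with a pseudocount of 0.07 RPM and under both scalings (the second SNAI2 region) and with a window of 10 kb (the region above the CDH1 start). They became 1 for wild-type KDM5A over the empty vector with a pseudocount of 0.07 RPM, and 1 for mutant over wild-type KDM5A with a window of 10 kb. A pseudocount of 3.5 RPM and a 2-fold threshold gave 0 throughout. Of the 33 ratios of single regions, 8 left their counting interval under each scaling. With 18 to 28 reads, the second SNAI2 region is limited by depth. No paired analysis was possible because each transfection had 1 library.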

Other observations

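VIM, ZEB1 and SNAI2 had no surrounding region within 25 kb in the table used here. The nearest listed region to VIM was 25895 bp below its main region, with 25.1 RPM with mutant and 28.0 RPM with wild-type KDM5A, against 31.2 RPM with the empty vector. ZEB1 had no listed region for 170555 bp below and 280768 bp above its main region. The next region above ZEB1 had 13.3 RPM with mutant and 20.2 RPM with wild-type KDM5A, against 22.6 RPM with the empty vector, and was singled out after its values were seen. SNAI2 had none for 54608 bp below its main region and for 2973843 bp above its second region. EPCAM was followed 31259 bp above by a region of like strength, with 46.0 RPM with mutant and 45.9 RPM with wild-type KDM5A, against 49.0 RPM with the empty vector.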
